A study of Rattus norvegicus with 4 samples.

Results

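Microtubule genes and their binding proteins were read by 15 probe sets, of 1263 probe sets other than controls on the array. The probe sets were taken by name: every one whose gene symbol in the probe table is exactly Tubb5, Map1b, Mapt or Map2. This gave 4, 3, 3 and 5 probe sets for these 4 genes out of 720 genes named. The genes themselves were chosen with earlier results of these data known. Total RNA came from rat tissue labelled as brain, adrenal medulla, and each of the 4 groups held 1 single-channel oligonucleotide array: undigested day 1, digested day 1, undigested day 7 and digested day 7 of a time course. The labels give no strain, age or agent, and they do not say what was digested, how many animals or cultures a sample held or why the study was made. With single arrays no spread between replicates could be measured, so differences are given as sizes without a test, and the order of the arrays for a gene has no error attached.

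Microtubules are hollow polymers of alpha and beta tubulin that fill axons and dendrites and carry their transport. Tubb5 codes for a beta tubulin made in many cell types and abundant in the developing nervous system. Map1b codes for a microtubule-associated protein of growing axons, Mapt for tau, which binds microtubules along axons, and Map2 for the related protein of dendrites and cell bodies. Chromaffin cells of the adrenal medulla share a neural crest origin with sympathetic neurons and can extend processes in culture.

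The upstream sequences of Tubb5 and Map1b are shown because their mean signals were both highest on the digested day 1 array and both lower at day 7 than at day 1. RefSeq's promoter table (build GRCr8) held 3 of the 4 genes, Tubb5, Map1b and Map2. The 250 bases before the annotated start are printed 5′ to 3′ on the gene's strand, at chr20:2917327-2917576 (plus strand) for Tubb5 and chr2:32644472-32644721 (minus strand) for Map1b, with matches to the motifs searched in capitals.
Tubb5: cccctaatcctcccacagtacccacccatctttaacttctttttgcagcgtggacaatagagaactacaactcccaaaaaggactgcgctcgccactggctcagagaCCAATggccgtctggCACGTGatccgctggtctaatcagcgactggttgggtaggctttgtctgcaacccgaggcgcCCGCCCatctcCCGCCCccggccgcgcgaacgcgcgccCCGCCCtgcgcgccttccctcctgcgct
Map1b: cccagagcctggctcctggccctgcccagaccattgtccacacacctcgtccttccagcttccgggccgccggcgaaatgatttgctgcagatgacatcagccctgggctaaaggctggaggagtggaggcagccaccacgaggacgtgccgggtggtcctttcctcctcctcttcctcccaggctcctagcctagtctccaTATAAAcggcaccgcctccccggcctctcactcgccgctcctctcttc
On both strands of the windows, 5 motifs were searched, none of which overlaps another there. The GC box GGGCGG was found 3 times in the Tubb5 window, each time on the reverse strand and so printed as its complement, and 30.5% of the windows of 33469 promoters held it. The motif CCAAT was found once there, as in 34.0% of all windows. The E-box CACGTG was also found once there, and 5.59% of all windows held it. The Map1b window held the motif TATAAA once, 48 to 43 bases before the start, and 12.9% of all windows did so. The cyclic AMP response element TGACGTCA was in neither window, against 1.59% of all. The Tubb5 window held 22 CpG dinucleotides, the Map1b window 13 and the Map2 window 1, against a median of 5 over all windows, and the Map2 window held none of the 5 motifs. A match describes the letters of the window and not a site in use.

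Signals were scaled to a common median, floored at 51.8 and taken to log2 (base 2, so a difference of 1 is 2-fold), and the 632 probe sets whose mean signal was at least 229 were analysed further. Of the 15 probe sets, 11 were in that set: all of Tubb5, Map1b and Mapt and 1 of Map2. Technical values set both day 7 arrays apart. The 3′ to 5′ signal ratio of beta-actin, which grows as RNA is less complete, was 2.66 on the undigested day 7 array and 1.35 to 1.48 on the others. The same ratio was highest there by a smaller margin for GAPDH, at 1.18 against 1.01 to 1.10, and for hexokinase, at 1.40 against 1.05 to 1.31. On the digested day 7 array 9 hybridisation control probe sets had a median log2 of -1.01 against their mean over the 4 arrays, and 0.25 to 0.43 on the others. Of the marker lists, Th, which codes for tyrosine hydroxylase of the catecholamine pathway, had a signal of at least 163625 on every array, while Vim, a filament gene of fibroblasts, vessels and glia, was at the floor on all 4. Vim was the only 1 of 7 fibroblast and vessel markers with a probe set, so the presence of these cells cannot be judged from it. The 8 adrenal cortex markers had no probe set, and of 6 microglia and macrophage markers 1 had one, too dim to be analysed. Pnmt, Chga and Gfap had no probe set of that name in the probe table. In these bulk samples, fewer cells of a type and less RNA per cell cannot be told apart.

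**Figure D1:**
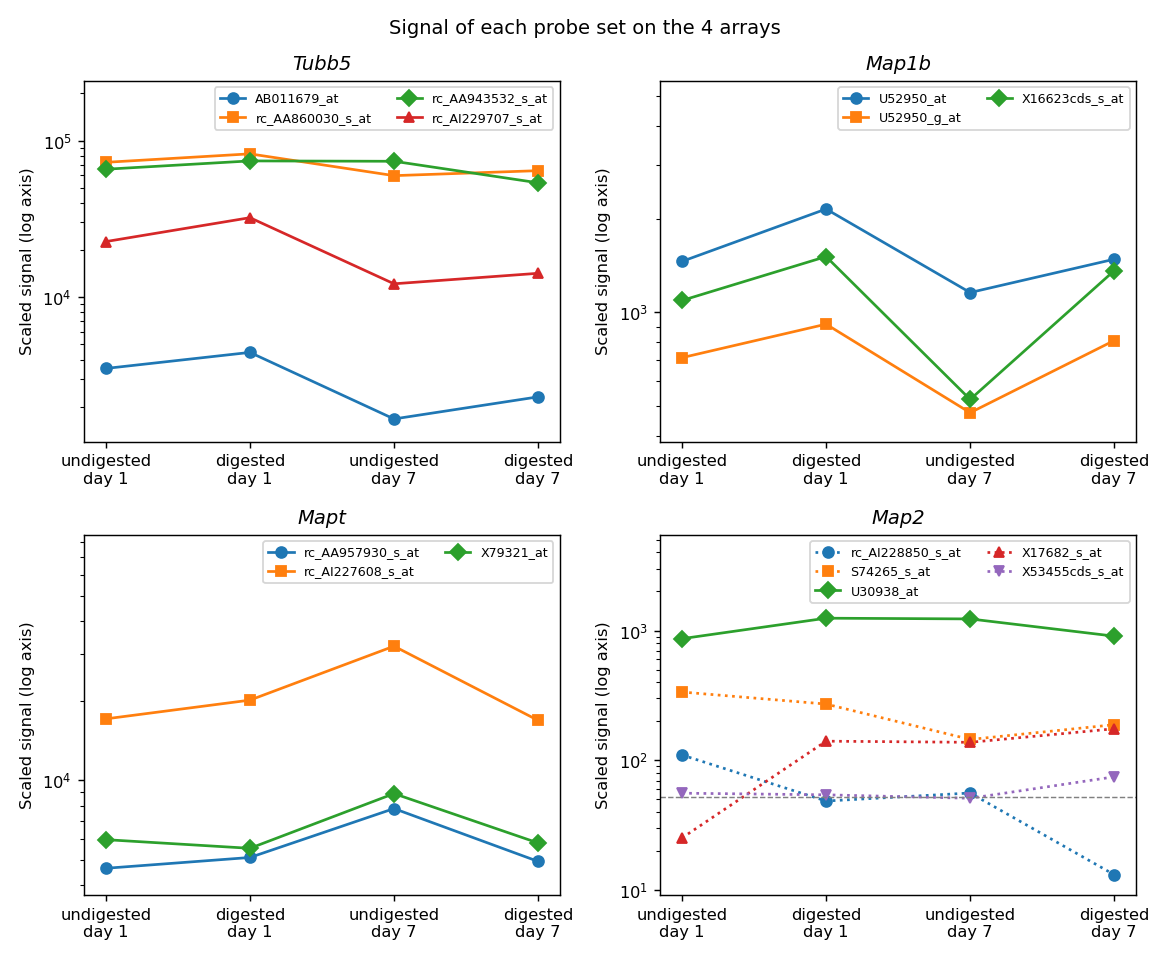
Scaled signal (log axis) of each of the 15 probe sets on the 4 arrays, 1 panel per gene; solid lines join analysed probe sets, dotted lines those left out as dim, and the dashed line in the Map2 panel is the floor of 51.8. All 3 Mapt probe sets peak on the undigested day 7 array, where all 3 Map1b probe sets are lowest.

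Few of the probe sets passed 2-fold in any comparison. Between digested and undigested samples at day 1, 0 of these 11 passed 2-fold, against 3.48% of all 632, and 10 of the 11 read higher in the digested sample, against 71.2% of all 632. At day 7, 1 of the 11 passed 2-fold between digested and undigested, higher in the digested sample, against 11.4% of all 632 either way and 6.96% higher. Between the days, 2 of the 11 passed 2-fold in the undigested samples, both lower at day 7, against 13.3% of all 632 either way and 6.01% lower. In the digested samples 1 of the 11 passed, lower at day 7, against 8.07% of all 632 either way and 4.75% lower. The median log2 difference over the 11 was 0.34 for digestion at day 1, 0.11 for digestion at day 7, -0.28 for the day in undigested samples and -0.36 for the day in digested samples. Over all 632 the same medians were 0.12, -0.05, 0.17 and 0.04. The values as deposited moved these last medians by -0.13, 0.14, -0.23 and 0.04, and quantile normalisation by -0.13, 0.03, -0.17 and -0.01. Different probe sets of a gene had a pooled SD of the log2 difference of 0.32, 0.52, 0.52 and 0.41 in the same order, over all genes with several analysed probe sets.

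**Figure D2:**
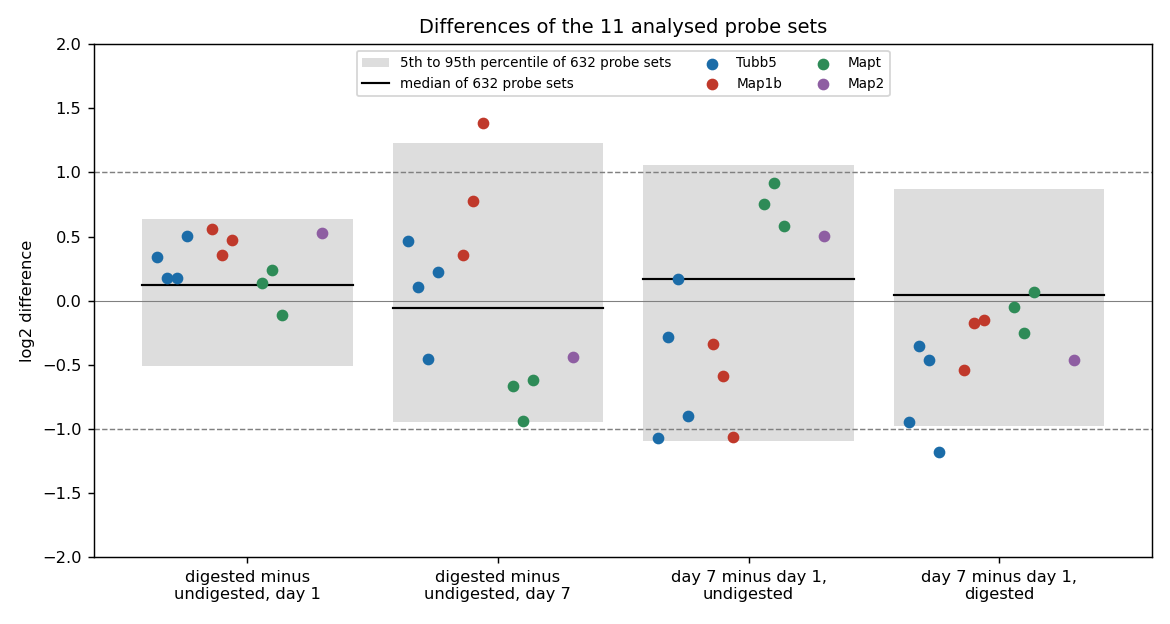
The log2 difference of the 11 analysed probe sets in each comparison, coloured by gene, over the median (line) and the 5th to 95th percentile (grey) of all 632 analysed probe sets; dashed lines mark 2-fold. Map1b and Mapt lie on opposite sides of 0 for digestion at day 7 and for the day in undigested samples.

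Tubb5 read lower at day 7, but its 4 probe sets differed in how much. By AB011679_at, the only one of the 4 without the suffix _s_at, its signal was 3509 in undigested and 4443 in digested samples at day 1, and 1670 and 2311 at day 7. Both day 7 arrays lay below both day 1 arrays, 2.10-fold lower in undigested samples and 1.92-fold lower in digested samples. The probe set rc_AI229707_s_at gave the same order of arrays, with 22656 and 32194 at day 1 and 12180 and 14212 at day 7. Its signal at day 7 was 1.86-fold lower in undigested and 2.27-fold lower in digested samples. The 2 brightest probe sets of the gene differed less between the days. The signals of rc_AA860030_s_at were 72642 and 82281 at day 1 (undigested, then digested) and 59717 and 64258 at day 7, again lower on both day 7 arrays, by log2 differences of -0.28 and -0.36. Those of rc_AA943532_s_at were 65625, 74154, 73768 and 53760, with the arrays in the same sequence. Here only the digested sample read lower at day 7 (log2 -0.46), while the undigested one read higher by 0.17, which turned to -0.06 in the values as deposited. Probe sets with the suffix _s_at can match more than 1 related transcript, and the beta tubulin genes are much alike in sequence, so the signal of these 3 may include other beta tubulins. The 2 probe sets that passed or came near 2-fold were close to each other in profile, with a root mean square difference of 0.11 in log2 values centred on their means over the 4 arrays. Either of them differed from the other 2 by 0.37 to 0.54. Some markers of other cell types read lower at day 7 as well, and others did not. The summed signal of the astrocyte markers was 7073 and 7304 at day 1 and 3104 and 3821 at day 7 (undigested, then digested), most of it from Glul, the glutamine synthetase gene, at 6550, 6904, 2499 and 3356. Slc1a3, the other analysed astrocyte marker, differed between the days by a log2 of -0.11 in undigested and 0.23 in digested samples. Snap25, a neuron marker of the exocytosis machinery, had 96677, 102213, 56595 and 61000, with the arrays in the same sequence as for Glul. Of the 8 analysed neuron markers, 4 read higher and 4 lower at day 7 in undigested samples. In digested samples 1 of them read higher and 7 lower. The part of these markers in the Tubb5 difference was not tested. Digestion had small differences, with all 4 probe sets 0.18 to 0.51 higher after digestion at day 1, and 3 of 4 higher at day 7. All 4 were highest on the digested day 1 array, as were 25.8% of all 632. Of the 39 genes with at least 3 analysed probe sets, 6 (15.4%) were highest on that array by every probe set: Maoa, Map1b, Scarb1, Snap25, Syn2 and Tubb5. For Tubb5 this rests on a narrow margin by rc_AA943532_s_at, 74154 against 73768 on the undigested day 7 array. The day 1 digestion differences of 0.18 for rc_AA860030_s_at and rc_AA943532_s_at were 0.05 and 0.05 in the values as deposited. After quantile normalisation they were 0.05 and 0.04.

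Map1b read higher in digested than in undigested samples at both days by all 3 probe sets, and lower at day 7 than at day 1 in both digestion states. By U52950_at its signal was 1461 in undigested and 2156 in digested samples at day 1, and 1159 and 1485 at day 7. By U52950_g_at, which is named for the same sequence and so is no independent reading, it was 714 and 916 at day 1 and 474 and 811 at day 7. By X16623cds_s_at it was 1093 and 1514 at day 1 and 524 and 1364 at day 7. The order was the same for each: digested day 1 highest, then digested day 7, undigested day 1 and undigested day 7. In the digested samples the signal was higher by log2 differences of 0.36 to 0.56 at day 1 and 0.36 to 1.38 at day 7, and the mean over the 3 corresponds to 1.38-fold and 1.79-fold. Only X16623cds_s_at passed 2-fold, at 2.60-fold higher with digestion at day 7 and 2.09-fold lower at day 7 in the undigested samples. Both of these values use the undigested day 7 array, so they are not separate evidence. On the 3 other arrays the mean Map1b signal was 1045 to 1441, and on the undigested day 7 array 660. That array had the beta-actin ratio of 2.66, with smaller gaps for GAPDH and hexokinase. The astrocyte marker sum, most of it from Glul, was lowest on it too, at 3104. The other astrocyte markers were not: the dim S100b and Slc1a2 were highest on it, at 96.3 and 182. Slc1a3 had 326 on it and was lowest on the digested day 1 array, at 229. The part of these values in the low Map1b signal was not tested, and 26.3% of all 632 were lowest on that array. Of the 39 genes with at least 3 analysed probe sets, 6 (15.4%) were lowest on that array by every probe set and 6 (15.4%) were higher in digested samples at both days by every probe set. Of the 632 analysed probe sets, 30.9% were higher with digestion at both days and 24.4% were lower at day 7 in both states. The digestion and day differences had the same direction for all 3 Map1b probe sets with quantile normalisation and in the values as deposited.

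Mapt, the tau gene, stood out on 1 array: all 3 probe sets were highest on undigested day 7. By rc_AI227608_s_at its signal was 17104 in undigested and 20140 in digested samples at day 1, and 32249 and 16878 at day 7. By rc_AA957930_s_at it was 4643 and 5102 at day 1 and 7819 and 4931 at day 7. By X79321_at it was 5961 and 5528 at day 1 and 8910 and 5792 at day 7. The undigested day 7 signal was higher than that of undigested day 1 by log2 differences of 0.58 to 0.91, a mean of 1.68-fold, and higher than that of digested day 7 by a mean of 1.67-fold. None of the 3 passed 2-fold in any comparison. On the 3 other arrays the mean Mapt signal stayed between 7794 and 8282, within 1.06-fold. The 3 probe sets were also near each other in profile, with root mean square differences of 0.09 to 0.16 in centred log2 values. Of the 632 analysed probe sets, 38.3% were highest on the undigested day 7 array, and of the 39 genes with at least 3 analysed probe sets 8 (20.5%) were so by every probe set: Bax, Camk2d, Capns1, Hrk, Mapt, Ncam1, Pdgfa and Pja2. The summed signal of the chromaffin cell markers, of which 5 of 9 had a probe set and 4 were analysed, was highest on that array too, at 351949 against 237332 to 288206 on the others. Th gave most of this sum, at 256725 there. Th, Dbh, Ddc and Penk were each highest on that array, Penk narrowly, at 2012 against 1973 on the digested day 7 array. The dim Slc18a2 was instead highest on the digested day 7 array, at 161 against 113. Of these 5 markers none was at the floor on every array, and Slc18a2 was at it on 1. The sum for the neuron markers, of which 9 of 13 had a probe set, was 214304 on the undigested day 7 array and 170093 to 246537 on the others. Its markers differed: Syp (62107 against 46543 to 50771), Eno2 (25994 against 15557 to 17346) and Nefh (4226 against 2622 to 3427) were highest on that array. Snap25 was lowest on it, at 56595 against 61000 to 102213. Of the 8 analysed, 5 read higher and 3 lower there than on the digested day 7 array. Against undigested day 1, 4 read higher and 4 lower. The sum for markers of oligodendrocytes and Schwann cells (4 of 8 with a probe set, 2 analysed) was also highest on the undigested day 7 array, at 3476 against 2453 to 2566. Most of it came from Cnp, at 2668, while Mag was highest on the digested day 7 array, at 669 against 542. The sum for astrocyte markers (4 of 7 with a probe set, 2 analysed) was lowest on the undigested day 7 array, at 3104 against 3821 to 7304. Most of it came from Glul, at 2499, while the dim S100b and Slc1a2 were highest on that array, at 96.3 and 182. The oligodendrocyte and Schwann cell sum and the astrocyte sum thus follow 1 bright gene each. The part of these markers, and of the beta-actin ratio, in the Mapt signal was not tested. For the small differences, X79321_at turned from 0.07 to -0.06 for the day in digested samples, and rc_AA957930_s_at from 0.14 to -0.02 for digestion at day 1, after quantile normalisation.

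Map2 gave 1 bright reading and 4 dim ones that disagreed. By U30938_at, the only analysed probe set, its signal was 866 in undigested and 1246 in digested samples at day 1, and 1230 and 906 at day 7. The digested sample read 1.44-fold higher at day 1 and 1.36-fold lower at day 7, and the day difference was 0.51 in undigested and -0.46 in digested samples. The signals of S74265_s_at, just under the limit of 229 for analysis at a mean of 223, were 336, 272, 145 and 188, so both day 7 arrays lay below both day 1 arrays, the opposite of U30938_at in undigested samples. Those of X17682_s_at were 25.3, 141, 138 and 175, with the first under the floor. Those of rc_AI228850_s_at were 110, 48.7, 56.1 and 13.2, with both digested samples under the floor. Those of X53455cds_s_at ran from 51.1 to 74.7, next to the floor throughout. The differences of these 4 are not ranked. Without the filter on dim probe sets 16.5%, 21.6%, 22.5% and 19.2% of all 1263 passed 2-fold, for digestion at day 1 and day 7 and for the day in undigested and digested samples. Read against that share, 2 of the 15 at day 1 and 4 of the 15 between the days in undigested samples are no result about these genes.

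**Figure D3:**
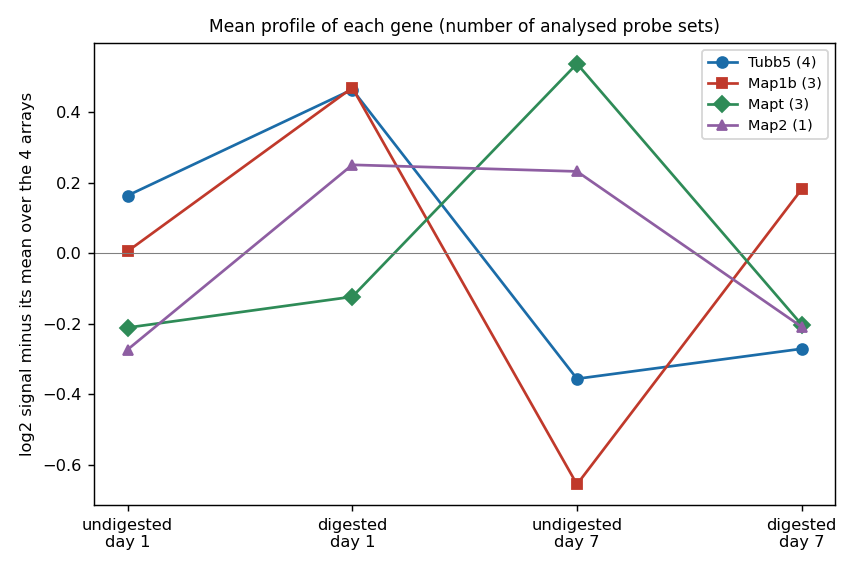
Mean log2 signal of each gene over its analysed probe sets (4, 3, 3 and 1), minus its mean over the 4 arrays. Map1b is lowest and Mapt highest on the undigested day 7 array, while Tubb5 is lower on both day 7 arrays than on both day 1 arrays.

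Setting the genes against each other within an array removes the scaling factor of that array. Between day 1 and day 7 in undigested samples, the ratio of Map1b to Mapt signal dropped by 1.41 on the log2 scale, a factor of 2.66. In digested samples the same ratio dropped by 0.21 between the days. Between digested and undigested samples at day 7 digestion went with a ratio 2.99-fold higher, and at day 1 with one 1.30-fold higher. The ratio of Tubb5 to Mapt was lower at day 7 in both states, 2.41-fold in undigested and 1.58-fold in digested samples. Tubb5 against Map1b had a log2 change of 0.14 between the days in undigested samples and -0.45 in digested samples. With the brighter 316 probe sets alone, which leave Map1b only U52950_at, these became -0.19 and -0.20, so neither the sign in undigested samples nor a contrast between the states held. The undigested day 7 array enters both of the large Map1b to Mapt values, and the 2 values without it were a factor of 1.30 and 1.16.

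The genes most alike in profile were taken by the smallest root mean square difference of centred log2 values over the 4 arrays, between the brightest analysed probe set of each of 386 genes. Those nearest to Tubb5 (rc_AA860030_s_at) were Maoa at 0.06, Gmfb at 0.06 and Syt11 at 0.07, with a median of 0.35 over all 385 other genes. This probe set itself lay 0.37 from AB011679_at and 0.38 from rc_AI229707_s_at. Its neighbours therefore do not describe the 2 Tubb5 probe sets that passed or came near 2-fold between the days. Nearest to Map1b (U52950_at) were Gipc1 at 0.12, Slc6a11 at 0.13 and Colq at 0.13, and Tubb5, by rc_AA860030_s_at alone, ranked 8 of 385 at 0.17. Mapt (rc_AI227608_s_at) was nearest to Pgap2, Plec and Gnas, each at 0.08, and Map1b ranked 313 of 385 from it at 0.61. Map2 (U30938_at) was nearest to Pnoc at 0.08, Fgfr4 at 0.08 and Cacna2d1 at 0.10. With 4 arrays a small difference is a description of these profiles only.

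The other microtubule, axon and regulator genes were read by few probe sets. Of 84 genes in 5 lists, 16 had a probe set of their name and 14 an analysed one, each taken by its brightest. None of the 14 passed 2-fold for digestion at either day, against 3.48% and 11.4% of all 632 either way. Lower past 2-fold at day 7 were 1 of the 14 in undigested samples and 2 in digested samples, against 6.01% and 4.75% of all 632, counts too small to set these lists apart. Gap43, the gene of a growth cone protein, was both times among them, with signals of 407 and 435 on the day 1 arrays and 102 and 152 on the day 7 arrays, undigested first. Like Tubb5 by AB011679_at, Gap43 lay lower on both day 7 arrays than on both day 1 arrays. Both day 7 signals of Gap43 were under 229, the limit for the mean signal. It was thus analysed only through its day 1 signals, and its drop is read with that caution. Nefm, the middle neurofilament subunit, had 40879, 42918, 38105 and 20845 in the same sequence of arrays, low on the digested day 7 array alone, at a log2 difference of -1.04 between the days. Map1a, whose protein is related to that of Map1b and becomes prominent in mature neurons, had 3054, 3798, 5698 and 4694. Its day 7 signals lay above both day 1 signals, by 0.90 in undigested and 0.31 in digested samples, where Map1b had means of -0.66 and -0.29. Gsk3b, a kinase that phosphorylates tau, had 1787, 1809, 2494 and 1751, highest on the same array as Mapt, as were 38.3% of all 632. Of the 4 analysed genes in its list of kinases and phosphatases, 3 read higher at day 7 in undigested samples. The other, Camk2b, read lower, with 930 at day 1 and 767 at day 7 in those samples. Dynll1, a dynein light chain gene, had 31593, 33439, 43390 and 32476, also highest on the undigested day 7 array. Between the days in undigested samples 11 of the 14 read higher and 3 lower at day 7, against 59.7% of all 632 higher. At day 7, 2 of the 14 read higher and 12 lower in the digested than in the undigested sample, against 44.5% of all 632 higher. Both comparisons use the undigested day 7 array, so these counts are not separate evidence.

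**Figure D4:**
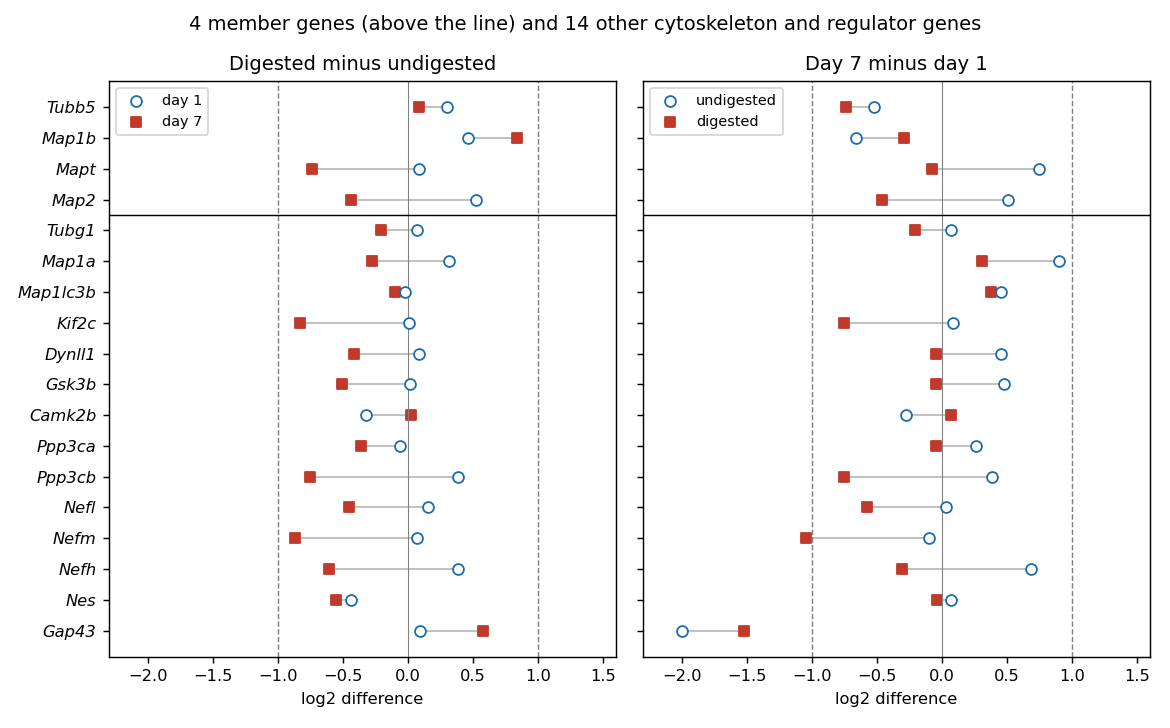
The log2 differences of the 4 genes (mean over analysed probe sets, above the line) and of 14 other cytoskeleton and regulator genes (brightest probe set), for digestion at each day (left) and for the day in each state (right); dashed lines mark 2-fold. Map1b and Gap43 read higher in the digested sample at day 7, where Mapt and Map2 read lower. Both day 7 signals of Gap43 lay under 229, the limit set for the mean signal. Of the 14 other genes 2 read higher and 12 lower in that comparison, against 44.5% of all 632 analysed probe sets higher.

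An additive limma fit of digestion and day over the 632 probe sets gave the only error that 4 single arrays allow, on 1 residual degree of freedom. The eBayes step of limma then drew the variance of each probe set toward a value shared by all 632. An SE or p-value from this fit thus rests largely on that shared value and is not the error of 1 probe set alone. None of the 11 probe sets had a Benjamini-Hochberg adjusted p under 0.05 for digestion or for the day, as against 0% and 0.158% of all 632. At an unadjusted p under 0.05 it was 1 of the 11 for digestion and 2 for the day, against 6.65% and 14.4% of all 632. The one for digestion was X16623cds_s_at of Map1b, with a log2 of 0.93 (SE 0.34, limma adjusted p = 0.677), higher with digestion in 2 of 2 pairs of arrays. The ones for the day were AB011679_at of Tubb5, at -1.01 (SE 0.31, limma adjusted p = 0.248), and rc_AI229707_s_at of Tubb5, at -1.04 (SE 0.31, limma adjusted p = 0.248), both lower at day 7 in 2 of 2 pairs. The SE cannot separate sample-to-sample spread from a real interaction of digestion and day, and effects common to both samples of a day are left out of it.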

How the data were processed

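Total RNA of 4 rat samples was measured on 4 single-channel oligonucleotide arrays, 1 per group. The authors deposited 1 intensity per probe set on a linear scale, for 1322 probe sets with 59 controls. Their method for computing and scaling signals is not given in the sources used; the mean after trimming 2% at each end was 2515 to 2516 on every array. Detection above background was not assessed here, and the number of arrays limits the precision. Here the 1263 probe sets other than controls were brought to a common median on each array (factors of 0.925 to 1.09), floored at the 20th percentile (51.8) and taken to log2. Those with a mean at or above the median (a signal of 229) were analysed. Differences of at least 2-fold were counted, with no test. The additive fit used limma 3.58.1 in R 4.3.3 (lmFit, then eBayes, which moderates the variances over all probe sets fitted) and was tested on simulated data. Python 3.11.15, numpy 2.4.6, pandas 2.3.3 and matplotlib 3.10.9 served for the rest. Gene names came from the probe table. Named were all probe sets of the 4 genes, the 3 genes most alike for each, and, of 5 lists of cytoskeleton and regulator genes, those past 2-fold; Map1a, Gsk3b and Dynll1 were named after their values were seen. The genes and lists were chosen with earlier results of these data known. Alternatives were no scaling, quantile normalisation, a higher floor (40th percentile), an offset added instead of flooring, analysis of all 1263 or of the 316 brightest probe sets, thresholds of 1.5-fold and 3-fold and 1 value per gene.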

Additional observations from a re-analysis of the deposited data

Results flagged for a closer look

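The probe set rc_AI227608_s_at of Mapt gave opposite digestion differences at the 2 days, 0.24 on the log2 scale at day 1 and -0.93 at day 7. The difference between the days is -1.17, which is the same number as that of the day difference between digested (-0.25) and undigested (0.91) samples. It was singled out because the signs are opposite and the difference of differences is at least 2-fold. It uses all 4 arrays, leaves no residual and was not tested.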

How the results depend on the processing

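Of 252 log2 differences of single probe sets recomputed under the alternatives of scaling, floor and filter, 120 equal the reported value, since the 11 probe sets have no value at the floor and a filter does not touch a single value. The other 132 moved by at most 0.33, each by less than the pooled SD between probe sets of a gene. Small differences changed sign for rc_AA943532_s_at in the values as deposited, and for X79321_at and rc_AA957930_s_at after quantile normalisation. Of 132 within-array ratios of genes, 76 equal the reported value, as a scaling factor cancels in them. The other 56 moved by at most 0.48, and 1 changed sign: Tubb5 against Map1b for the day in undigested samples. Each moved by less than that SD, which describes single probe sets and not ratios of gene means. The ratio of Map1b to Mapt ran from -1.43 to -1.08 for the day in undigested samples and from 1.10 to 1.65 for digestion at day 7. The counts of probe sets past 2-fold are small and moved more. With no filter, 16.5% of all 1263 passed for digestion at day 1 and 22.5% for the day in undigested samples. For the scalings, the higher floor, the offset, the brighter 316, 3-fold and 1 value per gene, no share of all probe sets was computed. A changed count under these cannot be told apart from a shift of all probe sets. At 1.5-fold, 27.8% of all 632 passed for digestion at day 7, 37.2% for the day in undigested samples and 23.7% for the day in digested samples, to be read beside the counts of 11 at that fold. For digestion at day 1 the count of 0 became 2 with no filter. For digestion at day 7 the count of 1 became 0 in the brighter 316 probe sets, 5 at 1.5-fold, 0 at 3-fold and 0 with 1 value per gene. For the day in undigested samples the count of 2 became 3 in the values as deposited, 3 after quantile normalisation, 1 with an offset, 4 with no filter, 1 in the brighter 316, 6 at 1.5-fold, 0 at 3-fold and 0 with 1 value per gene. For the day in digested samples the count of 1 became 2 after quantile normalisation, 2 at 1.5-fold, 0 at 3-fold and 0 with 1 value per gene. Fewer or more probe sets enter with a filter or 1 value per gene by construction; other causes were not tested. The additive limma fit called 0 of the probe sets under every alternative run, with a lowest adjusted p of 0.343 to 0.998 for digestion and 0.0832 to 0.447 for the day, and 0 to 1 and 2 of them had an unadjusted p under 0.05. Over all probe sets fitted, it called 0 for digestion under every alternative and, for the day, 17 of 632 (2.69%) with the 40th percentile floor, 3 (0.475%) with an offset and 0 under the others, while 3.48% to 8.39% and 11.2% to 20.3% had an unadjusted p under 0.05. Each group held 1 array, so no fit could take a replicate number as a block; the additive fit pairs the arrays by day for digestion and by digestion for the day. Leaving out an array ends every comparison that uses it.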
